A study of Mus musculus with 32 samples.

Results

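Nucleic acid sensors are the proteins with which a cell reads RNA or DNA that is out of place, and 10 of their genes were followed here across 32 RNA sequencing libraries of BV-2 cells, an immortalised mouse microglial line. The 10 genes were taken by name from the 45706 genes of the deposited table: Ddx58, Ifih1, Dhx58, Eif2ak2, Tlr3, Tlr7, Mb21d1, Tmem173, Zbp1 and Aim2. They were singled out because short RNA duplexes, such as the microRNA mimics used in this study, are among the molecules that such sensors can read. The study asked what 3 microRNAs do to microglial gene expression at rest and after activation. Cells carried a scramble control duplex or the mimic of miR-146a-5p, of miR-29a-3p or of miR-7a-5p, and were kept for 24 h with LPS (lipopolysaccharide of the outer bacterial membrane) at 10 ng/ml or with its vehicle (VEH). This gave 8 groups of 4 libraries, named here by treatment and duplex: VEH_scramble and LPS_scramble, VEH_miR-7a and LPS_miR-7a, VEH_miR-29a and LPS_miR-29a, VEH_miR-146a and LPS_miR-146a. The sample labels place LPS before transfection, whereas the methods of the study describe transfection before LPS.

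All cells were labelled wild type and all had been transfected, the controls with a scramble duplex. No untransfected cells were analysed here, so a response shared by every duplex cannot be seen in any comparison, and each mimic is read only against the scramble duplex. All 3 mimics are read against 1 set of 4 scramble libraries per treatment, which ties their comparisons to each other. BV-2 is a single cell line, and the samples measure the mixture of all cells in a dish, in which fewer cells of a kind and less RNA per cell cannot be told apart. The labels call the cell type glioblastoma and attach a mouse age to some libraries, although no animal was sampled. Of a list of 12 microglia or macrophage markers, the 11 that could be read in every library summed to 3210 to 6320 CPM (counts per 1000000 counts of a library, after scaling of library sizes) per library, with Cd68 and Adgre1 among the highest. Csf1r and Cx3cr1, which define microglia in the brain, had medians of only 0.733 CPM (over the 24 libraries in which it could be read) and 0.613 CPM. The 8 astrocyte or glioma markers summed to between 0 and 2.17 CPM, with Gfap at 0 in 26 libraries and Sox2 at 0 in 30. Of 4 markers listed each, 4 fibroblast markers summed to at most 2.17 CPM, 3 neuron markers to at most 1.85, 3 oligodendrocyte markers to at most 17.9 and 4 T or B cell markers to at most 0.543.

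The sensors differ in where they sit and in what they bind. RIG-I (Ddx58), MDA5 (Ifih1) and LGP2 (Dhx58) are cytosolic RNA helicases that signal, or in the case of LGP2 help to signal, through MAVS, and PKR (Eif2ak2) is a kinase that stops translation when it binds duplex RNA. TLR3 and TLR7 read duplex and single-stranded RNA in the endosome, while cGAS (Mb21d1) makes a second messenger on DNA that STING (Tmem173) receives, AIM2 builds an inflammasome on DNA, and ZBP1 binds Z-form nucleic acid and can start necroptosis. Many of these genes are themselves targets of type I interferon, which activated microglia can release.

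The mature sequences of the mimicked microRNAs are shown because they are the duplex strand whose targeting was under study. They were taken from RefSeq (GRCm38.p6), 5′ to 3′, with the seed (bases 2 to 8) in capitals. The 3 seeds differ from each other. miR-7a-5p is encoded at 2 loci, of which Mir7-1 at chr13:58392841-58392863 (minus strand) is given, miR-29a-3p by Mir29a at chr6:31062673-31062694 (minus strand) and miR-146a-5p by Mir146 at chr11:43374435-43374456 (minus strand).
miR-7a-5p: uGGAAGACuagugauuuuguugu
miR-29a-3p: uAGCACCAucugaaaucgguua
miR-146a-5p: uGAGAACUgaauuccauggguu

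The complements of these seeds were searched in the 3′ untranslated region of each sensor, using the GENCODE M21 transcript with the longest coding part. The letters searched were GTCTTCC for miR-7a-5p, TGGTGCT for miR-29a-3p and AGTTCTC for miR-146a-5p. Among 20636 genes with such a region, 10.5%, 11.82% and 10.01% held at least 1 match. Of the 10 sensors, Ddx58 held 1 match for miR-29a-3p, Tmem173 held 1 for miR-7a-5p, and none held a match for miR-146a-5p. The match in Ddx58 lies at chr4:40205652-40205658 (GRCm38, minus strand), and is shown with 11 bases on each side because the levels of Ddx58 under miR-29a are given below.
Ddx58 site: tggtttcaagcTGGTGCTgtccacacaaa

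Promoters were examined because several of the sensors moved together under LPS. RefSeq promoters (250 bases before the start to 50 after, GRCm38.p6) were matched for 6 of the 10 sensors, Ddx58, Ifih1, Eif2ak2, Tlr3, Mb21d1 (listed as Cgas) and Aim2, and Dhx58, Tmem173, Zbp1 and Tlr7 had no entry in the table used. The core of the interferon-stimulated response element, written GAAA, then any 2 bases, then GAAA, was searched on both strands. It was present in 3 of the 6, Ddx58, Ifih1 and Eif2ak2, and in 3.44% of the 32851 promoters of the table (3.72% of the 8360 genes tested for LPS under scramble that had one). The 3 promoters that hold it are shown with the motif in capitals: chr4:40239776-40240075 for Ddx58, chr2:62646206-62646505 for Ifih1 and chr17:78882523-78882822 for Eif2ak2, all on the minus strand and each written in the direction of its gene. The motif lies from 2 to 11 bases after the start of Ddx58 (on the opposite strand), from 32 to 41 in Ifih1 and from 18 to 27 in Eif2ak2.
Ddx58: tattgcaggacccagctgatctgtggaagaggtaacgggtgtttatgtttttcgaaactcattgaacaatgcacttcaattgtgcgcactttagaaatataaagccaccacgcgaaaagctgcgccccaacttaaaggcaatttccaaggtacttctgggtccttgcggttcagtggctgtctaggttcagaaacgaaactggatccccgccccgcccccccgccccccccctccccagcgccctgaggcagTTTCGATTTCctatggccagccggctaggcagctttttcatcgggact
Ifih1: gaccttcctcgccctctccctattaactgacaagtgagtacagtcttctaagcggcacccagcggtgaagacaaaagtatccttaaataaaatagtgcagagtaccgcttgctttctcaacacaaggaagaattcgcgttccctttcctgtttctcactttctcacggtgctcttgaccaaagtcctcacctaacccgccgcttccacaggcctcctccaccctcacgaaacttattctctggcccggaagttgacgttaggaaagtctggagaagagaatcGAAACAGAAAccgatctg
Eif2ak2: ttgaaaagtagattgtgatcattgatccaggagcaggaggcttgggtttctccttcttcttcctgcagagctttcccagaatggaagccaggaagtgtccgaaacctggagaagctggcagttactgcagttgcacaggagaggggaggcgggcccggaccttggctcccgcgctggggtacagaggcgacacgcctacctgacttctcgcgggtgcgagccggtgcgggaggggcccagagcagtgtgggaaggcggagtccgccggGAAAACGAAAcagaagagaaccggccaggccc
A match of these letters is a description of the sequence and was not tested as a binding site.

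The libraries held from about 1150100 to about 20299800 restored counts, and a level of 3 counts, taken as the floor of detection, was worth 0.148 to 2.61 CPM. Small structural RNA made up 33.3% to 36.6% of the counts in VEH_miR-7a replicates 2, 3 and 4, against 4.21% in replicate 1 and 2.6% to 17.4% in the other 28 libraries. The counts of called sensors that rest on VEH_miR-7a are therefore also given below with replicate 1 as its only library, an alternative chosen after the data were seen. The deposited table had lost its decimal marks, which were restored by a model. All 320 values of the 10 sensors were read with a probability of at least 0.9973, and 82 of them carried a restored mark.

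Divided by the length of their exons, the sensors spanned a wide range of levels. In VEH_scramble, Tlr7 stood highest at 37.2 ± 11.3 CPM per kb, followed by Tmem173 at 16.4 ± 2.61, Aim2 at 12.3 ± 3.08, Eif2ak2 at 6.17 ± 1.57 and Dhx58 at 4.12 ± 0.549 (SD, n = 4). Mb21d1 (3.35 ± 0.58), Ifih1 (2.41 ± 0.505), Ddx58 (1.62 ± 0.299) and Tlr3 (0.507 ± 0.181) followed, and Zbp1 was near 0 at 0.0374 ± 0.0437. In LPS_scramble the order changed: Tlr7 (26.3 ± 3.97) and Tmem173 (19.5 ± 3.4) were followed by Eif2ak2 (16.6 ± 0.856), Aim2 (15.4 ± 1.31), Dhx58 (11.7 ± 1.53), Ifih1 (7.34 ± 0.869), Mb21d1 (6.19 ± 1.34), Ddx58 (6 ± 1.21), Tlr3 (1.51 ± 0.156) and Zbp1 (1.25 ± 0.475). The TLR7, STING and AIM2 transcripts thus had the highest levels of the set at rest, per length, and Ddx58, Tlr3 and Zbp1 the lowest. All further levels are in CPM, without division by length.

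**Figure D1:**
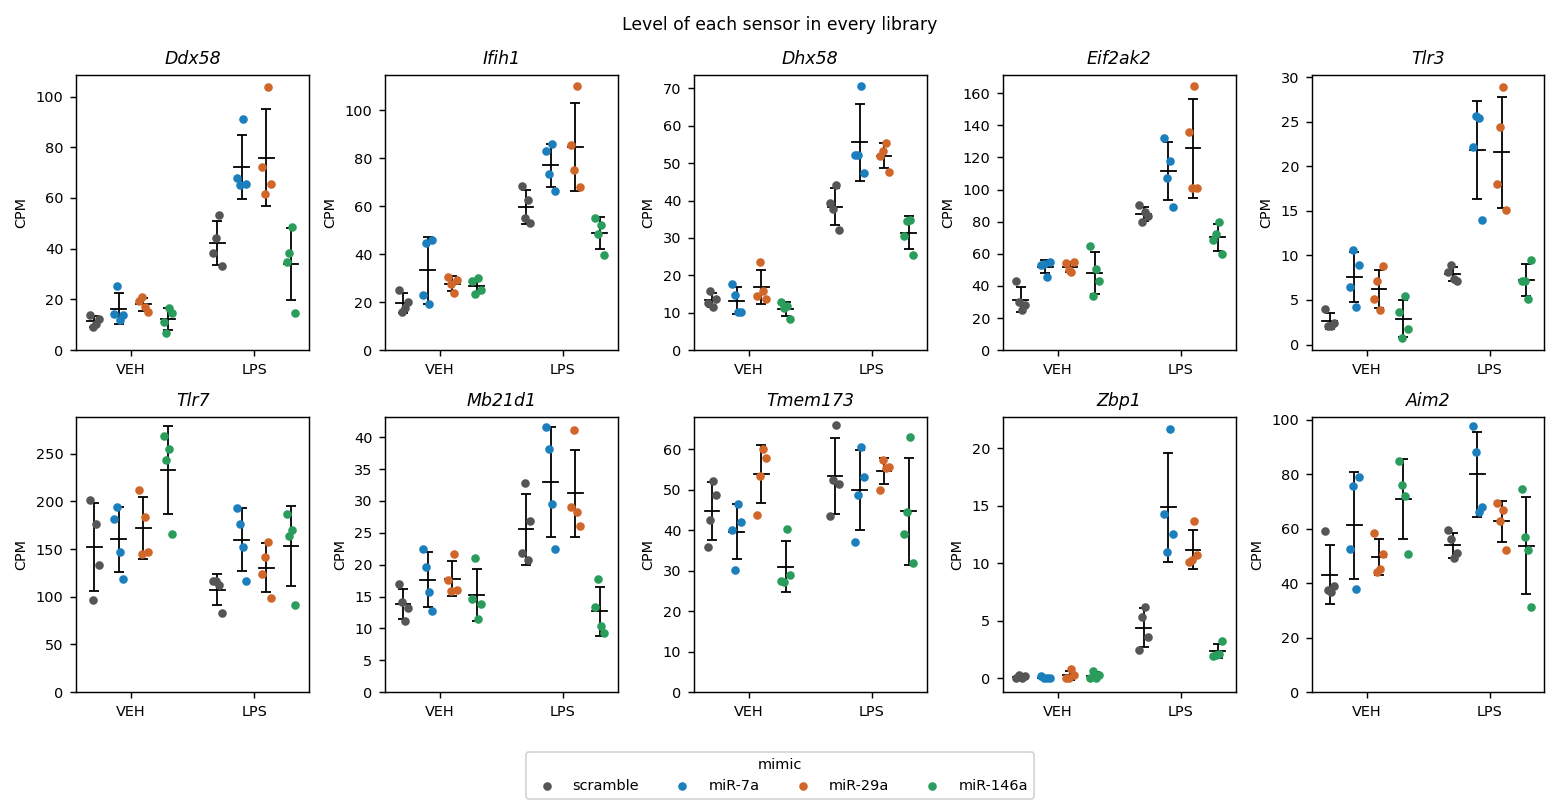
Level of each of the 10 sensors (vertical axis, CPM, linear) in all 32 libraries, with the 4 vehicle groups on the left and the 4 LPS groups on the right of each panel. Points are single libraries coloured by mimic, and black bars give the mean and SD of the 4 libraries. Zbp1 lies at 0 to 0.842 CPM in every vehicle library and at 1.94 to 21.7 in every LPS library.

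LPS went with higher levels of most sensors, the RNA helicases and PKR among them. In scramble-transfected cells, 7 of the 10 sensors passed the test between LPS and vehicle, all of them higher, where 17.6% of the 11900 genes tested were called (1130 higher and 964 lower). Scaled by total counts alone, which raised the median of all genes to 0.21, 7 were also called, beside 1965 higher and 520 lower over all genes. The 7 were Zbp1, Ddx58, Ifih1, Tlr3, Dhx58, Eif2ak2 and Mb21d1. The median log2 fold change over the 10 was 1.49, against 0.01 over all genes tested. Zbp1 entered this test through its LPS libraries alone, so it had to differ, and the count without it is 6 of 9. The same 7 were called after leaving out any 1 of the 8 libraries.

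Among the RIG-I-like receptors, Ddx58 measured 13.8, 9.1, 10.4 and 12.4 CPM in the 4 VEH_scramble libraries, in the order of their replicate numbers, and 38.3, 44.3, 53.1 and 33.3 CPM in LPS_scramble. Every LPS library lay above every vehicle library, and the log2 fold change was 1.86 ± 0.21 (SE; limma adjusted p = 0.000239). Ifih1, the receptor for long duplexes, rose from 25.3, 15.8, 17.4 and 20.1 to 68.5, 55.2, 62.7 and 53.1 CPM, which is 1.59 ± 0.18 on the log2 scale (limma adjusted p = 0.000211). Dhx58, which lacks the signalling domains of the other two, rose from 12.7, 15.8, 11.6 and 13.7 to 39.4, 37.8, 44.2 and 32.1 CPM (1.52 ± 0.18, limma adjusted p = 0.000253). For all 3 helicases the groups were well apart.

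PKR rose too. Eif2ak2 read 43.1, 29.9, 24.8 and 28.3 CPM in VEH_scramble and 90.3, 80, 86.1 and 83.4 in LPS_scramble, a difference of 1.46 ± 0.18 on the log2 scale (limma adjusted p = 0.000298). The 4 LPS libraries spanned a narrow range and all lay above the vehicle libraries. Of the endosomal receptors, Tlr3 was called and Tlr7 was not. Tlr3 rose from 4.02, 2.06, 2.02 and 2.46 to 8.08, 8.95, 7.38 and 7.14 CPM (1.55 ± 0.27, limma adjusted p = 0.00257), without overlap. Tlr7 read 201, 96.9, 176 and 133.1 CPM in VEH_scramble and 116.7, 116.6, 112.5 and 83.1 in LPS_scramble, where its log2 fold change of -0.45 ± 0.22 did not pass the test (limma adjusted p = 0.181) and the groups overlapped. Its 95% interval ran from -0.93 to 0.04. Without VEH_scramble replicate 2, the lowest vehicle library, it became -0.65 and passed (limma adjusted p = 0.039). Leaving out any 1 library of this comparison gave 1054 to 2773 calls over all genes, against 2094 with all libraries.

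On the DNA side, the enzyme moved and its receptor was not shown to. Mb21d1, the cyclic GMP-AMP synthase, rose from 16.9, 14.1, 11.1 and 13.2 CPM to 21.8, 32.8, 20.7 and 26.9 (0.90 ± 0.21, limma adjusted p = 0.0121), and the groups did not overlap. Tmem173 read 35.9, 42.6, 52.1 and 48.8 CPM in vehicle and 43.6, 52.4, 66 and 51.5 under LPS (0.29 ± 0.17, 95% interval -0.085 to 0.66, limma adjusted p = 0.263). Aim2 read 59.2, 37.6, 36.7 and 38.9 against 59.4, 56.2, 49.4 and 51.1 CPM (0.34 ± 0.18, 95% interval -0.04 to 0.73, limma adjusted p = 0.193). Both sets of groups overlapped, although each gene was higher under LPS in 4 of 4 same-numbered pairs. Without VEH_scramble replicate 1, in which Aim2 stood apart from the other vehicle libraries, Aim2 passed at 0.50 (limma adjusted p = 0.0295). Calls over all genes ranged from 1054 to 2773 when any 1 library was left out.

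Zbp1 showed the widest contrast of the set. Its restored counts were 0, 1, 0 and 2 in VEH_scramble, which is at or under the floor of 3 counts per library, and 7, 79, 88 and 79 in LPS_scramble, or 2.46, 5.35, 6.19 and 3.64 CPM. Pooled over the libraries of each group, 253 counts against 3 gave a ratio of 34.9 after library size, with an exact binomial 95% interval of 11.8 to 170 that covers counting error only. The same ratio was 139 (24.8 to 5490) under miR-7a, from 654 counts against 1, and 33.1 (16.7 to 77) under miR-29a, from 548 against 8. Under miR-146a it was 8.98 (3.93 to 25.3), from 72 counts against 6. The fitted log2 fold changes of this gene depend on the offset given to counts of 0 and are not bounds. They were 4.60 ± 0.55, 5.21 ± 0.64, 5.29 ± 0.51 and 3.15 ± 0.72 in the same order.

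With each mimic, the LPS response of the sensors was read again in cells that carried the mimic on both sides. Under miR-29a, 7 of 10 sensors were called, all higher, the same 7 as under scramble, where 26.5% of 11926 genes were called. Same-numbered libraries deviated together in this comparison, and with the replicate block Tlr7 also passed, lower under LPS in 4 of 4 pairs (-0.42, limma adjusted p = 0.0205, against 0.0862 without the block), where 37.4% of all genes were called. Under miR-7a, 6 of 10 were called, all higher, where 6.45% of 11585 genes were called, and Mb21d1 was the 1 of those 7 that did not pass (0.68 ± 0.29, limma adjusted p = 0.204; 0.00514 with the block, where 14.3% of all genes were called). The miR-7a count depended on the scaling: by total counts alone, 9 of 10 were called, with Mb21d1 (1.20, limma adjusted p = 0.0249), Aim2 (0.94, 0.0244) and Tmem173 (0.78, 0.0487) added, where 19.5% of all genes were called, 2095 higher and 162 lower, and their median was 0.52. Tlr7 then turned from -0.08 to 0.47 and was not called. Under miR-146a, 5 of 10 were called, all higher, where 4.41% of 11807 genes were called. The 5 were Ddx58, Ifih1, Dhx58, Eif2ak2 and Zbp1. Eif2ak2 lost its call with no filter on low counts (limma adjusted p = 0.0526) and with limma-trend (0.114). With the replicate block Tlr7 also passed under miR-146a, lower in 4 of 4 pairs (-0.62, limma adjusted p = 0.00356, against 0.142), where 6.93% of all genes were called. Zbp1 passed the filter on low counts only through the LPS libraries in each of these comparisons too.

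The sensor medians were 1.26 under miR-7a, 1.40 under miR-29a and 0.78 under miR-146a, beside 0.03, -0.01 and -0.02 over all genes tested. With VEH_miR-7a replicate 1 as the only vehicle library, which is then assumed to vary like the LPS group, 2 of 10 sensors passed (Ddx58 and Ifih1), where the share over all genes fell to 0.63%. The log2 fold changes stayed near those of all libraries, at 2.32 for Ddx58 (against 2.20), 1.64 for Dhx58 (1.88), 1.70 for Tlr3 (1.595) and 1.05 for Eif2ak2 (1.06), and that of Zbp1, from 1 vehicle count, was 5.72 and did not pass. The miR-146a count was 2 to 4 after leaving out any 1 of the 8 libraries, while the count over all genes was 263 to 460 against 521, and Ifih1 and Dhx58 were called each time. In these fits Ddx58 differed by 1.16 to 1.74 and Eif2ak2 by 0.50 to 0.755, and each was called in 1 of the 8. Zbp1 was called in 2 of the 8. Tlr3 lost its call under miR-7a without VEH_miR-7a replicate 1, 2 or 3 or LPS_miR-7a replicate 2 or 3, with log2 fold changes from 1.43 to 1.72 in those fits.

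**Figure D2:**
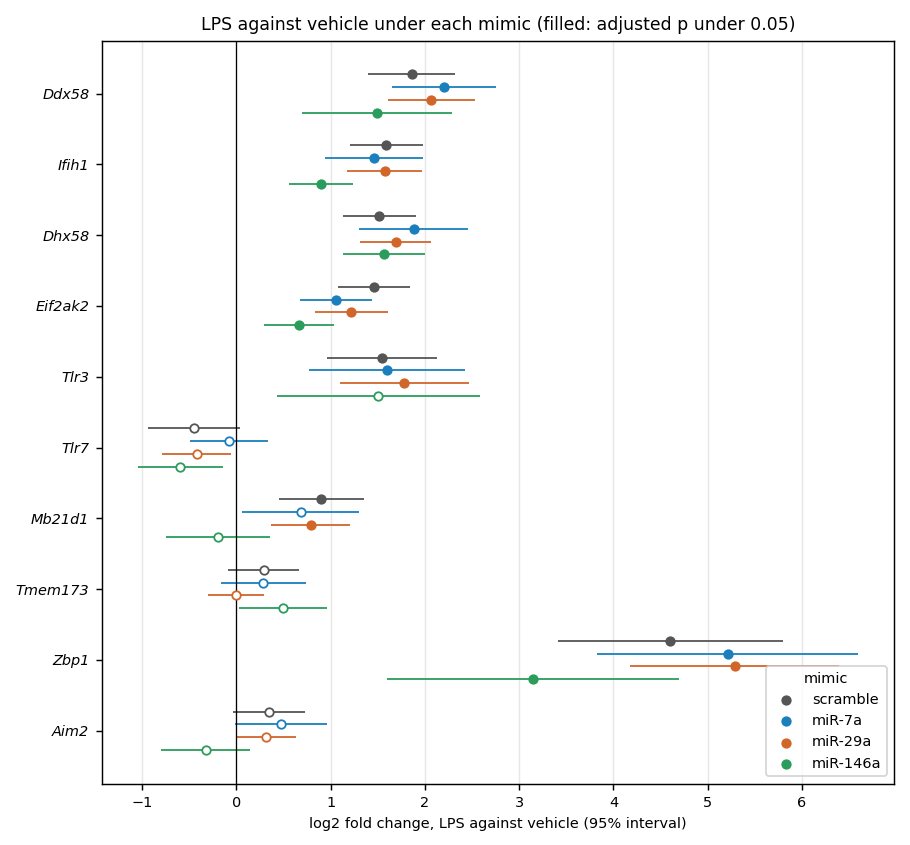
Log2 fold change between LPS and vehicle (horizontal axis) of each sensor under the scramble duplex and the 3 mimics, with 95% intervals from limma. Filled points passed an adjusted p of 0.05 and open points did not. Zbp1 lies farthest to the right, between 3.15 and 5.29, and Tlr7 lies left of 0 under all 4 duplexes, where its points are open in these fits without the block (with total count scaling its miR-7a value is 0.47).

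In miR-146a cells the 3 helicases also rose, though the call of Ddx58 held in only 1 of the 8 fits that left out a library. Ddx58 read 11, 6.62, 16.6 and 14.8 CPM in VEH_miR-146a and 34.6, 38.2, 48.6 and 14.7 in LPS_miR-146a, so that the groups overlapped through LPS replicate 4 (1.49 ± 0.37, limma adjusted p = 0.0366). Ifih1 went from 28.7, 23.6, 29.9 and 25.1 to 55.3, 48.3, 52.2 and 39.9 CPM (0.90 ± 0.16, limma adjusted p = 0.0052), with no overlap. Dhx58 went from 12.8, 11.3, 11.8 and 8.45 to 30.6, 34.5, 34.9 and 25.5 CPM (1.57 ± 0.20, limma adjusted p = 0.000737), also with no overlap. Tlr3 gave a log2 fold change of 1.51, close to the 1.55 under scramble, yet with an SE of 0.50 it did not pass (limma adjusted p = 0.121), while in a single fit of all 8 groups it did (1.53, limma adjusted p = 0.042, where 6.58% of all genes were called). Its 4 vehicle values of 3.67, 0.77, 5.39 and 1.69 CPM were the most scattered of any vehicle group relative to their mean.

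For the cGAS transcript no rise under LPS was seen with miR-146a. Mb21d1 read 14.7, 21.1, 11.5 and 13.8 CPM in VEH_miR-146a and 13.4, 17.8, 10.4 and 9.23 in LPS_miR-146a, lower under LPS in 4 of 4 same-numbered pairs, with a log2 fold change of -0.20 (95% interval -0.75 to 0.36). The difference between the 2 LPS responses, the interaction term, was -1.11 ± 0.34 with a 95% interval of -1.81 to -0.41, and it did not pass the correction over all genes (limma adjusted p = 0.351).

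Under vehicle, no sensor passed the main test, made without the block, against scramble with any mimic. Aim2 with miR-146a did pass in other fits, which are given below. In VEH_miR-7a, 0 of the 9 sensors tested were called, where 0.0462% of 10834 genes were, and with replicate 1 as the only VEH_miR-7a library the count was also 0 (0.0978% of all genes). In VEH_miR-29a it was 0 of 9, where 0.00879% of 11375 genes (1 gene) were called, and in VEH_miR-146a 0 of 9, where 1.61% of 11497 were. At an unadjusted p under 0.05 the limma test gave 2, 4 and 4 sensors, beside 12.1%, 10.3% and 25% of all genes tested. Zbp1 failed the filter on low counts in these comparisons and was not tested.

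The vehicle values were not flat, however, and the intervals allow sizeable differences. Tlr3 read 6.41, 10.6, 4.22 and 8.93 CPM in VEH_miR-7a and 5.1, 7.11, 3.87 and 8.82 in VEH_miR-29a, above the scramble library of the same number in 4 of 4 pairs each time. Its log2 fold changes were 1.34 ± 0.40 (95% interval 0.48 to 2.19, limma adjusted p = 0.229) and 1.20 ± 0.36 (0.42 to 1.98, limma adjusted p = 0.302), and replicate 1 of VEH_miR-7a alone gave 1.25. Eif2ak2 read 53.1, 53.9, 45.8 and 54.9 CPM with miR-7a and 54.1, 50.1, 48.5 and 54.7 with miR-29a, and none of these 8 libraries overlapped the scramble libraries (0.75 ± 0.21 and 0.74 ± 0.19, limma adjusted p = 0.214 and 0.247; 0.775 with replicate 1 of VEH_miR-7a alone). With miR-146a Eif2ak2 read 64.8, 33.9, 50.5 and 43 CPM, higher than scramble in 4 of 4 same-numbered pairs but with overlapping groups (0.53 ± 0.225, limma adjusted p = 0.173). Ddx58 with miR-29a read 19.4, 21, 17 and 15 CPM, also above all 4 scramble libraries (0.59 ± 0.21, limma adjusted p = 0.357).

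With miR-146a under vehicle, Aim2 read 85, 75.9, 72.2 and 50.7 CPM against 59.2, 37.6, 36.7 and 38.9 in scramble (0.68 ± 0.21, limma adjusted p = 0.0846). Tlr7 read 267.9, 243.2, 254.8 and 165.3 CPM (0.65 ± 0.24, limma adjusted p = 0.123) and Tmem173 27.5, 27.3, 40.4 and 28.9 CPM (-0.49 ± 0.19, limma adjusted p = 0.145). In 4 of 4 same-numbered pairs Aim2 and Tlr7 were higher and Tmem173 lower than scramble, although the groups overlapped for all 3. Without VEH_scramble replicate 1, Aim2 passed at 0.85 (limma adjusted p = 0.0302). Leaving out any 1 library of this comparison gave 0 to 1147 calls over all genes, against 185 with all libraries. Aim2 also passed with the replicate block (0.715, limma adjusted p = 0.04), where 6.33% of all genes were called. In a single fit of all 8 groups it passed as well (0.67, limma adjusted p = 0.0411), where 11.4% were called.

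Under LPS, miR-7a and miR-29a each went with higher levels of Tlr3, Zbp1 and Ddx58 than scramble. With miR-7a, 3 of 10 sensors were called, all higher, where 2.47% of 12598 genes were called, and with miR-29a 3 of 10, all higher, where 4.62% of 12758 were. The 3 genes were the same with both mimics, which share their scramble libraries. The median log2 difference over the 10 sensors was 0.55 with miR-7a and 0.48 with miR-29a, beside 0.02 and 0.00 over all genes tested. With miR-146a, 1 of 10 sensors was called, Mb21d1, lower, where 2.38% of 12281 genes were, and the sensor median was -0.24 beside -0.01.

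Same-numbered libraries deviated together in all 3 of these comparisons, so the replicate number was also fitted as a block. In the paired fit 8 of 10 sensors passed with miR-7a (8.53% of 12598 genes), 6 with miR-29a (9.52% of 12758) and 2 with miR-146a (10.6% of 12281). The 5 added with miR-7a were Ifih1, Dhx58, Tlr7, Aim2 and Eif2ak2, the 3 added with miR-29a were Ifih1, Dhx58 and Eif2ak2, and the 1 added with miR-146a was Tlr7, all of them higher than in scramble. In the unpaired fits without LPS_scramble replicate 4, 0 sensors passed with miR-7a and 1, Tlr3, with miR-29a. Calls over all genes moved too when any 1 library was left out. They ranged from 63 to 353 with miR-7a (311 with all libraries) and from 140 to 654 with miR-29a (589). Without replicate 4 the differences were 1.35 for Tlr3 (limma adjusted p = 0.0587) and 1.482 for Zbp1 (0.0829) with miR-7a, and 1.13 for Zbp1 with miR-29a (0.0768). Those of Ddx58 were 0.62 with miR-7a (limma adjusted p = 0.15) and 0.685 with miR-29a (0.136).

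Tlr3 gave the plainest difference. It read 8.08, 8.95, 7.38 and 7.14 CPM in LPS_scramble, 22.2, 25.7, 25.4 and 13.9 in LPS_miR-7a and 18, 24.4, 28.9 and 15.1 in LPS_miR-29a, so that every library of either mimic lay above every scramble library. The log2 fold changes were 1.43 ± 0.22 (limma adjusted p = 0.00891) and 1.475 ± 0.22 (limma adjusted p = 0.00739). In LPS_miR-146a it read 7.13, 7.16, 5.07 and 9.5 CPM, which overlapped scramble (-0.21 ± 0.21, 95% interval -0.67 to 0.26). The levels of Tlr3 in VEH_miR-7a and VEH_miR-29a overlapped those in LPS_scramble.

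Zbp1 read 2.46, 5.35, 6.19 and 3.64 CPM in LPS_scramble against 14.3, 10.9, 21.7 and 12.6 in LPS_miR-7a and 10.1, 10.3, 13.7 and 10.7 in LPS_miR-29a, with no overlap. The log2 fold changes were 1.67 ± 0.28 (limma adjusted p = 0.0137) and 1.31 ± 0.235 (limma adjusted p = 0.0133). In LPS_miR-146a it read 1.94, 2.06, 2.15 and 3.26 CPM, below the scramble library of the same number in 4 of 4 pairs but with overlapping groups (-1.04 ± 0.33, limma adjusted p = 0.138). The groups of LPS_miR-146a and LPS_miR-7a, which were not compared by a test, lay several-fold apart, with means of 2.35 ± 0.61 and 14.9 ± 4.74 CPM (SD, n = 4).

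Ddx58 read 67.8, 65.1, 91.1 and 65.4 CPM in LPS_miR-7a and 72.4, 61.6, 103.8 and 65.6 in LPS_miR-29a, against 38.3, 44.3, 53.1 and 33.3 in LPS_scramble. The differences of 0.78 ± 0.17 (limma adjusted p = 0.0396) and 0.83 ± 0.20 (limma adjusted p = 0.0376) were close to the threshold, and each held in 1 of the 8 fits that left out a library. In the paired fits both were firmer, at 0.78 (limma adjusted p = 0.00207) and 0.82 (limma adjusted p = 0.00261). Whether the match to the miR-29a seed in Ddx58 bears on these levels was not tested. Tmem173, the sensor with a match for miR-7a-5p, differed by -0.12 ± 0.17 with that mimic under LPS (limma adjusted p = 0.777) and by -0.145 ± 0.20 under vehicle (0.803).

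The other 2 helicases and PKR leaned the same way. Dhx58 read 52.2, 52.1, 70.6 and 47.5 CPM in LPS_miR-7a and 51.8, 53.3, 55.3 and 47.7 in LPS_miR-29a, all above the scramble libraries, with differences of 0.54 ± 0.16 and 0.46 ± 0.13 that missed the threshold (limma adjusted p = 0.0936 and 0.0663) and passed in the paired fit (0.0107 and 0.0313). Ifih1 differed by 0.39 ± 0.13 and 0.51 ± 0.16 (limma adjusted p = 0.153 and 0.0938; paired 0.0332 and 0.0196). Eif2ak2 differed by 0.38 ± 0.13 and 0.54 ± 0.16 (limma adjusted p = 0.16 and 0.0824; paired 0.0449 and 0.0192). With miR-146a all 4 were lower than scramble in 4 of 4 same-numbered pairs, by -0.29, -0.23, -0.24 and -0.25 for Ddx58, Ifih1, Dhx58 and Eif2ak2, and none passed in either fit.

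Mb21d1 in LPS_miR-146a, at 13.4, 17.8, 10.4 and 9.23 CPM, lay below all 4 LPS_scramble libraries at 21.8, 32.8, 20.7 and 26.9, a difference of -1.01 ± 0.22 (limma adjusted p = 0.0389, paired 0.00907). The unpaired call held in 2 of the 8 fits that left out a library, with differences from -1.19 to -0.88. It was also lost with total count scaling, with no filter on low counts and with limma-trend (limma adjusted p = 0.052, 0.0536 and 0.0525), at differences of -1.03, -1.04 and -1.01. With miR-7a (41.6, 38.1, 29.5 and 22.5 CPM) and miR-29a (29.1, 41.2, 28.3 and 26.1 CPM) the groups overlapped scramble, and the intervals of the differences ran from -0.17 to 0.76 and from -0.14 to 0.67. Tmem173 stayed within overlapping groups under all 3 mimics, with intervals of -0.49 to 0.25, -0.28 to 0.31 and -0.69 to 0.14.

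Tlr7 and Aim2 were not called in the unpaired fits of all 8 libraries. Without LPS_miR-7a replicate 4, Tlr7 passed with miR-7a (0.69, limma adjusted p = 0.0482). Without LPS_miR-146a replicate 4 it passed with miR-146a (0.715, limma adjusted p = 0.0389). Leaving out any 1 library gave 63 to 353 and 11 to 243 calls over all genes in these comparisons. Tlr7 read 193.3, 176.2, 152.5 and 116.7 CPM in LPS_miR-7a and 186.4, 164, 169.9 and 91.7 in LPS_miR-146a, above the scramble library of the same number in 4 of 4 pairs with each (0.57 ± 0.17 and 0.52 ± 0.20, limma adjusted p = 0.109 and 0.208; paired 0.00367 and 0.0128). Its LPS_miR-29a libraries, at 123.9, 141.9, 157.6 and 98.9 CPM, were also higher in 4 of 4 pairs (0.28 ± 0.16, limma adjusted p = 0.361, paired 0.0967). Aim2 read 97.9, 88.3, 66.1 and 67.9 CPM in LPS_miR-7a, above all scramble libraries (0.56 ± 0.15, limma adjusted p = 0.071, paired 0.00857). With miR-29a and miR-146a its differences were 0.225 and 0.03 (limma adjusted p = 0.321 and 0.953; paired 0.268 and 0.946). Tlr7 and Aim2 thus had positive unpaired differences with all 3 mimics, although that of Aim2 with miR-146a was -0.02 in the paired fit. All these differences share the LPS_scramble libraries, of which replicate 4 read 83.1 CPM for Tlr7 against 112 to 117 in the others.

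**Figure D3:**
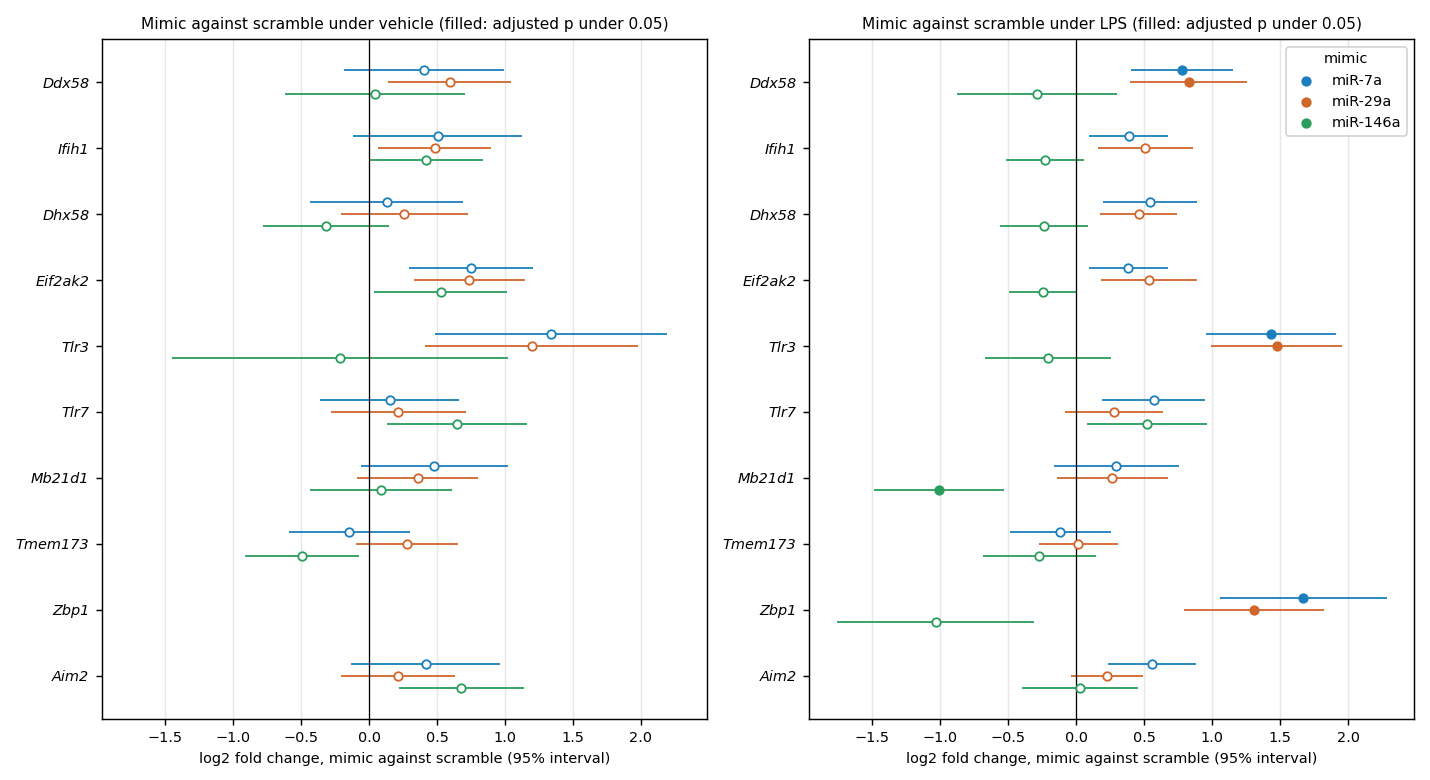
Log2 fold change of each sensor between a mimic and scramble (horizontal axis, 95% intervals from limma without the block) under vehicle (left) and LPS (right). Filled points passed an adjusted p of 0.05, and Zbp1 was not tested under vehicle. Under LPS the miR-7a and miR-29a points of Ddx58, Tlr3 and Zbp1 are filled on the right of 0, and the miR-146a point of Mb21d1 is filled at -1.01.

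Whether a mimic changed the LPS response itself was tested by the interaction of mimic and LPS over 16 libraries. It gave no call among the 10 sensors (0, 0 and 0 for miR-7a, then miR-29a, then miR-146a), where 0.00859%, 0.0169% and 0% of the genes tested were called in that order of mimics (1 of 11647, 2 of 11808 and 0 of 11846). At an unadjusted p under 0.05 the same limma test gave 0, 0 and 4 sensors, beside 5.34%, 6.44% and 11.2% of all genes. The 4 with miR-146a were Mb21d1, Eif2ak2 (-0.79 ± 0.25), Ifih1 (-0.68 ± 0.23) and Aim2 (-0.68 ± 0.30), all negative. For Tlr3, the interaction was 0.06 ± 0.47 with miR-7a and 0.25 ± 0.45 with miR-29a, so the calls under LPS and the misses under vehicle do not show that its difference from scramble depended on LPS. For Ddx58 it was 0.36 ± 0.33 and 0.22 ± 0.31. With replicate 1 as the only VEH_miR-7a library, the miR-7a interaction again gave 0 sensors (0.0153% of all genes), with 0.16 for Tlr3 and 0.46 for Ddx58.

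Placed in order of their group means, the sensors fell into 3 kinds of pattern. Ddx58, Ifih1, Dhx58, Eif2ak2 and Zbp1 had their 4 highest means in the 4 LPS groups, led by LPS_miR-29a or LPS_miR-7a with LPS_miR-146a as the lowest of them. Mb21d1 and Tlr3 had LPS_miR-7a and LPS_miR-29a on top, whereas LPS_miR-146a stood among the vehicle groups, and for Mb21d1 below all of them at 12.7 ± 3.81 CPM. Tlr7, Aim2 and Tmem173 had no such order. The mean of Tlr7 was highest in VEH_miR-146a (232.8 ± 46.1 CPM) and lowest in LPS_scramble (107.2 ± 16.2), and all its neighbours in the order overlapped. Over the 10 genes, 63 of the 70 steps between neighbouring groups had overlapping ranges. The exceptions were the steps from LPS_scramble up to the next higher group for Ddx58, Dhx58, Zbp1 and Tlr3, and from LPS_miR-146a down to the vehicle group below it for Dhx58, Zbp1 and Eif2ak2.

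Around the sensors, the genes that carry their signal were followed from 4 lists. Of 27 partners (adaptors, kinases and transcription factors that act directly with the sensors), 25 were tested for LPS under scramble, and 5 rose and 2 fell (17.6% of all genes were called), with a median of 0.06 over the list beside 0.01 over all genes. The replicate block gave 5 higher and 4 lower of the 25, beside 24.3% of all genes. Irf7, the interferon regulatory factor that the sensors activate, rose from 21.3 to 294.3 CPM (3.87 ± 0.31, limma adjusted p = 3.29e-05). Mlkl, the executioner of necroptosis downstream of ZBP1, rose by 1.16 (limma adjusted p = 0.000546), Irf5 fell by 0.67 (limma adjusted p = 0.0092), and Hsp90b1, a chaperone of Toll-like receptors, rose by 0.55 (limma adjusted p = 0.026). Irf3, the factor that RIG-I-like receptors and STING activate first, named here after its values were seen, fell from 25.3 to 15.2 CPM (-0.83 ± 0.24, limma adjusted p = 0.0361). With the mimics under LPS, 0 of 25 partners passed with any of the 3 by limma, and 8, 5 and 5 had an unadjusted p under 0.05, beside 17.2%, 21.3% and 17.6% of all genes tested, in the order miR-7a, miR-29a, miR-146a. With the replicate block, added for these lists after the data were seen, 4 rose and 3 fell with miR-7a, 1 and 2 with miR-29a, and 1 and 3 with miR-146a, beside 8.53%, 9.52% and 10.6% of all genes. Irf7 was 0.55 higher with miR-7a (limma adjusted p = 0.004) and 0.345 lower with miR-146a (0.0194) in those fits. The counts for LPS were 3 higher and 0 lower under miR-7a, 5 and 3 under miR-29a, and 2 and 0 under miR-146a (of 25 each, beside 6.45%, 26.5% and 4.41% of all genes, with 8 and 5 under miR-29a with the block, beside 37.4%), and Irf7 was the largest rise among those called each time.

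Among the other sensors and effectors, Oasl2, Ifit2, Ifi204 and Ddx60 rose under LPS. Of 27 listed, 19 were tested for LPS under scramble, 10 rose and 2 fell (17.6% of all genes were called), and the median was 0.68. Oasl2 (4.40 ± 0.30, from 6.88 to 141.9 CPM), Ifit2 (2.85 ± 0.22), Ifi204 (2.13 ± 0.19) and Ddx60 (2.61 ± 0.27) had the smallest limma adjusted p, from 9.77e-06 to 0.000106. They encode an OAS-like protein, a binder of foreign RNA, a DNA-binding member of the AIM2-like receptors and a helicase. Under the mimics the LPS counts were 14 higher and 1 lower of 24 for miR-7a, 16 and 1 of 24 for miR-29a, and 11 and 0 of 23 for miR-146a (Ifit1 and Ifi205 under miR-29a and Ifit1 and Ifit3 under miR-146a entered through LPS libraries alone), beside the same 6.45%, 26.5% and 4.41% of all genes. With replicate 1 as the only VEH_miR-7a library the miR-7a counts were 6 higher and 1 lower of 25 here and 1 higher of 25 among the partners, where 0.63% of all genes were called. Fitted with the replicate block, the LPS counts of this list were 10 higher and 3 lower under scramble and 15 and 2 under miR-7a. They were 17 and 3 under miR-29a and 11 and 3 under miR-146a. Over all genes 24.3%, 14.3%, 37.4% and 6.93% were called in these fits. Against scramble under LPS, 2.47%, 4.62% and 2.38% of all genes were called with miR-7a, miR-29a and miR-146a. Of this list, Ifit2, Ddx60 and Ifi203 rose with miR-7a (1.495, 1.01 and 0.80, limma adjusted p = 0.0178, 0.0232 and 0.0388), and Ddx60, Ifit2, Oasl1 and Ifit1 rose with miR-29a (1.45, 1.54, 0.81 and 3.09, limma adjusted p = 0.0032, 0.00921, 0.0279 and 0.0341). With miR-146a, Mnda fell by 0.82 (limma adjusted p = 0.0457). With the replicate block these counts became 9 higher and 1 lower of 21, 11 and 0 of 22, and 1 and 9 of 22 (8.53%, 9.52% and 10.6% of all genes). Under vehicle, Ifit2 was 1.84 higher with miR-7a (limma adjusted p = 0.0279), where 0.0462% of all genes were called, and no other gene of this list was called with any mimic in the unpaired fits. In 3 of the 4 VEH_miR-7a libraries behind that value structural RNA made up 33.3% to 36.6% of the counts, and with replicate 1 alone it was 1.496 and did not pass (limma adjusted p = 0.589). Fitted with the replicate block, the vehicle counts of this list were 2 higher of 19 with miR-7a and 1 higher of 21 with miR-29a. With miR-146a they were 3 higher and 1 lower of 20. Over all genes 2.7%, 0.413% and 6.33% were called in these fits. The Oas, Ifi200 and Ifit families hold near-identical copies, so the split of reads between their members is uncertain.

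Nucleases and editing enzymes, which remove or alter what the sensors read, were mixed. Of 14 listed, 11 were tested for LPS under scramble, where 17.6% of all genes were called, of which Adar, the RNA-editing enzyme, rose by 0.90 (limma adjusted p = 0.00519), and the lysosomal nucleases Dnase2a and Pld3 fell by 0.75 and 0.48 (limma adjusted p = 0.00412 and 0.0438). The median was -0.21. Under LPS none of these genes passed with any mimic by limma, with 3 of 11, 3 of 12 and 2 of 12 at an unadjusted p under 0.05 (17.2%, 21.3% and 17.6% of all genes), and under vehicle Rnaseh2a fell by 0.89 with miR-146a (limma adjusted p = 0.0276), where 1.61% of all genes were called. With the replicate block 5 of 11 passed for LPS under scramble (24.3% of all genes), and under LPS 1 gene passed with each mimic, Adar with miR-7a, Pld3 with miR-29a and Rnaseh2a with miR-146a (1 of 11, 1 of 12 and 1 of 12, near the 8.53%, 9.52% and 10.6% of all genes).

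Of 15 genes of the interferon axis, 7 were tested for LPS under scramble. Irf9 (1.46 ± 0.17, limma adjusted p = 0.000288), Usp18 (2.15 ± 0.29, limma adjusted p = 0.00055), Isg15 (3.98 ± 0.64, limma adjusted p = 0.00168) and Stat2 (0.84 ± 0.19, limma adjusted p = 0.0107) rose, and none fell, where 17.6% of all genes were called. Isg15, like Zbp1, entered this test through its LPS libraries alone, so it had to differ, and the count without it is 3 of 6. The replicate block gave 6 of 7 higher, Isg15 counted, beside 24.3% of all genes. Against scramble under LPS, 3 of 9 rose with miR-29a (4.62% of all genes were called), among them Stat2 (1.36, limma adjusted p = 0.00189) and Usp18 (1.19, limma adjusted p = 0.00929). With miR-7a 0 of 9 passed and with miR-146a 0 of 9, and 5 and 3 of these had an unadjusted p under 0.05, beside 17.2% and 17.6% of all genes. With the replicate block, 6 of 9 rose with miR-7a, among them Usp18 (0.95, limma adjusted p = 0.00181) and Stat2 (0.79, limma adjusted p = 0.002), 4 of 9 rose with miR-29a, and 2 of 9 fell with miR-146a, among them Isg15 (-1.06, limma adjusted p = 0.0127), beside 8.53%, 9.52% and 10.6% of all genes. The median difference was 0.41 in LPS_miR-7a, 0.29 in LPS_miR-29a and -0.23 in LPS_miR-146a.

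**Figure D4:**
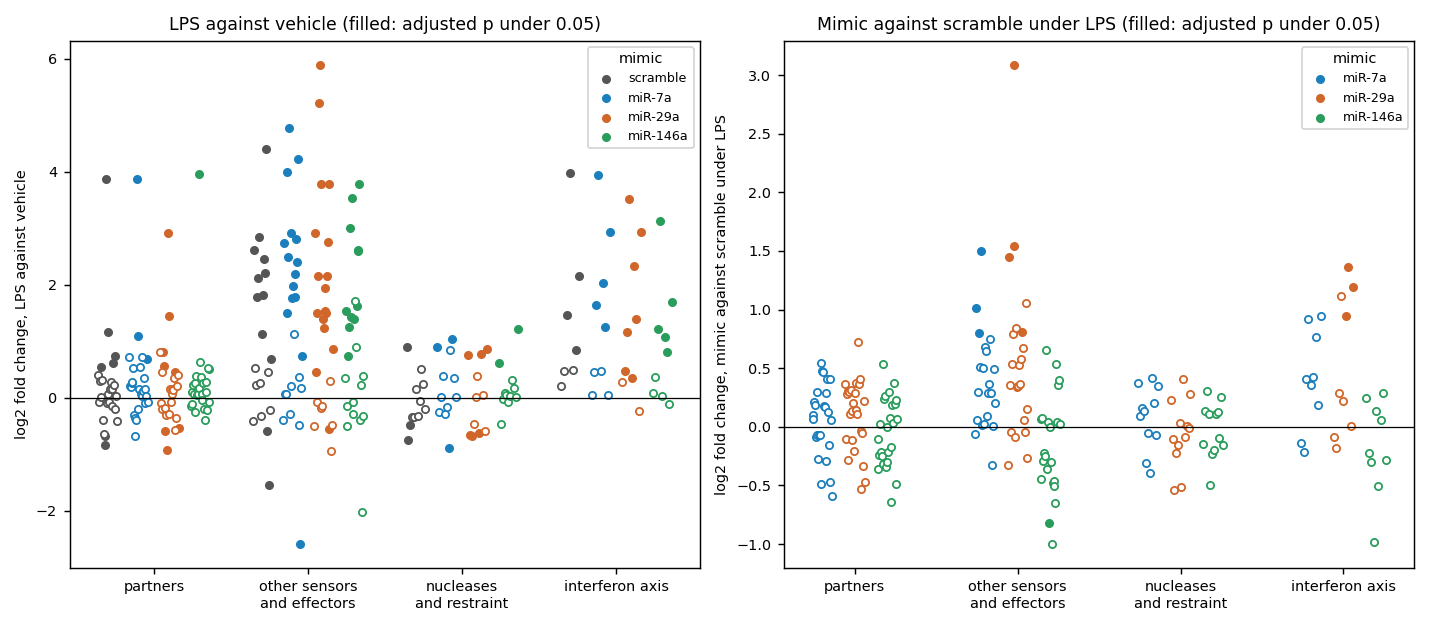
Log2 fold change of every tested gene of 4 lists around the sensors (vertical axis), for LPS against vehicle under each duplex (left) and for each mimic against scramble under LPS (right). Each point is 1 gene, filled where the adjusted p was under 0.05 in the fit without the block. Among the partners a single gene, Irf7, stands near 4 on the left under scramble, miR-7a and miR-146a, and on the right the filled points lie in the lists of other sensors and effectors and of the interferon axis.

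Over the 32 libraries, the genes whose log2 CPM followed a sensor most closely were named as a description, out of 11706 genes; the libraries fall into groups and share depth, so no test was made. For Ddx58 they were Irf9, Irgm1 and Pyhin1 (Pearson r from 0.948 to 0.941), for Dhx58 Usp18, Fcgr1 and Irgm1 (0.959 to 0.953), and for Zbp1 Xaf1, Gm4955 and Usp18 (0.969 to 0.958). Ifih1 and Eif2ak2 were each other's closest gene at 0.948, and Ifi203 was among the 3 closest of both. Tlr3 was closest to Rpgrip1l (0.888), then to Eif2ak2 (0.877) and Dck (0.868). Mb21d1 instead followed Cse1l, Rad54l and Cdca5 (0.897 to 0.887), genes of nuclear transport, homologous recombination and chromatid cohesion. Tlr7 followed Pik3r1, Rasa1 and Tmem168 (0.862 for the first), Aim2 followed Parg, Dock11 and Slc16a10 (0.847 to 0.822), and Tmem173 had the weakest match, with Reep6 at 0.78, Ppap2a at 0.768 and Afmid at 0.767.

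All 10 genes are protein coding and lie on 9 chromosomes, with Ifih1 (chr2:62595798-62646255) and Zbp1 (chr2:173206612-173218923) on the same one (GRCm38, GENCODE M21). Of the other called sensors, Ddx58 lies at chr4:40203773-40239828, Dhx58 at chr11:100694884-100704271, Tlr3 at chr8:45395665-45411080, Mb21d1 at chr9:78430526-78443237 and Eif2ak2 at chr17:78852564-78882573, all on the minus strand. Genes on the opposite strand overlap 5 of the 10: Dhx58os with Dhx58, Gm8093 with Mb21d1, Gm45542 with Tlr3, Cadm3 with Aim2, and n-R5s29 and Gm26637 with Eif2ak2. Whether the counting used strand is not given in the sources used here, and without it reads of such partners cannot be told apart.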

How the data were processed

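After removal of ribosomal RNA, the authors sequenced total RNA libraries over 75 cycles, counted reads per gene with nf-core rnaseq 3.0 on GRCm38, and tested pairs of conditions with filterByExpr, TMM and limma/edgeR; the annotation release is not given in the sources used here. The deposited values are a score rather than counts, since estimated counts lost their decimal marks: of 109458 values of 20000 or more, 0.0155% end in 0. A model weighed 0 to 3 lost decimals from the digits and from the gene's level in like libraries. Genes with a value below a probability of 0.9 in a comparison were left out. The share restored with under 3 decimals was 9.21% to 13.5% per library, against 10% if last digits are uniform.

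Groups came from the sample labels. For each comparison, the libraries of its groups were filtered on low counts (minimum 10), scaled by TMM and tested with limma-voom (limma 3.58.1, R 4.3.3), two-sided, with Benjamini-Hochberg adjustment over all genes tested and an adjusted p threshold of 0.05. Log2 fold changes carry the moderated SE of the limma fit, made on 8 libraries, or on 16 for an interaction. Levels carry SD over 4 libraries, and intervals and floors on counts cover counting error only. The methods call the replicates independent experiments. Restoration and tests were tested on simulated data. The 10 sensors and the lists were chosen with earlier results of these data known, and the 3 likest genes per sensor and at most 4 called genes per list, by smallest adjusted p, were named. A listed gene that this rule would name is not reported here by name, and stays in its list's counts and medians. Same-numbered libraries deviated together, with every correlation over 0.1, in 6 of 10 comparisons (lowest 0.144), and the numbers come from the labels. Alternatives covered scaling, filter, test, pooling of groups, replicate block, restoration and leaving out each library.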

Additional observations from a re-analysis of the deposited data

Results flagged for a closer look

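In 8 of the 80 groups of 4 libraries, 1 library of a sensor lay apart from the other 3, farther than a fixed limit on the gap (Dixon's 95% value), where chance gives about 1 in 20, or 4. Ddx58 read 25.3 CPM in VEH_miR-7a replicate 2 against 12.1 to 14.3 in the others, and 91.1 CPM in LPS_miR-7a replicate 3 against 65.1 to 67.8. Tmem173 read 40.4 CPM in VEH_miR-146a replicate 3 against 27.3 to 28.9. Zbp1 read 0.183 CPM, a single count, in VEH_miR-7a replicate 1 where the others were at 0, 13.7 CPM in LPS_miR-29a replicate 3 against 10.1 to 10.7, and 3.26 CPM in LPS_miR-146a replicate 4 against 1.94 to 2.15. Tlr7 read 83.1 CPM in LPS_scramble replicate 4 against 112 to 117, and Aim2 59.2 CPM in VEH_scramble replicate 1 against 36.7 to 38.9. The cause of these gaps was not tested.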

How the results depend on the processing

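The restoration of decimal marks decided the results. With the values as deposited, 0, 1, 1 and 0 sensors passed for LPS under scramble, miR-7a, miR-29a and miR-146a, and 0, 0 and 0 for the mimics under LPS. Calls over all genes fell to 108, 265, 228 and 36 for LPS, from 2094, 747, 3161 and 521 in that order. For the mimics under LPS they fell to 35, 18 and 31, from 311, 589 and 292. The signs then reversed for Eif2ak2 under scramble (-3.46), for Ddx58 under miR-29a (-0.88) and miR-146a (-2.93), and for Zbp1 between LPS_miR-29a and LPS_scramble (-0.57). A stricter certainty of 0.99, 1 set of library sizes in the restoration, leaving out structural RNA genes, median-of-ratios scaling and a minimum absolute log2 change of 0.3 each kept the counts of sensors within 1.5 times. Total count scaling raised the LPS count under miR-7a from 6 to 9 and under miR-29a from 7 to 8 (Aim2), where 19.5% and 27.8% of all genes were called. Total count scaling, no filter on low counts and limma-trend each gave 0 sensors for LPS_miR-146a against LPS_scramble (Mb21d1 at limma adjusted p = 0.052, 0.0536 and 0.0525). Over all genes these fits called 196, 201 and 159, against 292 in the main fit. A fit of all 8 groups gave 1 sensor for VEH_miR-146a and 6 for LPS_miR-29a against scramble, where 11.4% and 4.57% of all genes were called. With VEH_miR-7a replicate 1 alone, an alternative chosen after the data were seen, 2 sensors passed for LPS under miR-7a, and 0 against VEH_scramble and 0 for the interaction, as with all libraries, where 0.63%, 0.0978% and 0.0153% of all genes were called.

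With the replicate block, 8, 6 and 2 sensors passed for the 3 mimics under LPS, as given above. In comparisons where same-numbered libraries did not all deviate together, the block moved the count from 0 to 1 for VEH_miR-146a (Aim2), from 6 to 7 for LPS under miR-7a (adding Mb21d1) and from 5 to 6 under miR-146a (adding Tlr7), where 6.33%, 14.3% and 6.93% of all genes were called. Under miR-29a, where they did, it added Tlr7 (-0.42, limma adjusted p = 0.0205), and it changed no other call of a sensor. Leaving out 1 library gave 2 to 4 sensors for LPS under miR-146a, 0 to 1 for VEH_miR-146a against scramble, and under LPS 0 to 3 with miR-7a, 1 to 4 with miR-29a and 0 to 1 with miR-146a. Over all genes those fits called 263 to 460 for LPS under miR-146a (521 with all libraries) and 0 to 1147 for VEH_miR-146a (185). Under LPS they called 63 to 353 with miR-7a (311), 140 to 654 with miR-29a (589) and 11 to 243 with miR-146a (292). Without VEH_scramble replicate 1 the VEH_miR-146a count of sensors was 1 (Aim2), and Mb21d1 lost its call in LPS_miR-146a without LPS_scramble replicate 1, 2 or 4 or LPS_miR-146a replicate 1, 3 or 4. The lowest counts were those of Zbp1 under vehicle, at 0 to 5 per library, and of Tlr3, from 5 counts, and such counts limit the precision of these 2 genes.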
